A study of Drosophila melanogaster with 36 samples.

Results

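Peptidoglycan recognition proteins (PGRPs) are the fly's sensors and scavengers of the bacterial cell wall. The 10 genes described here were chosen by symbol (PGRP-SA, PGRP-SD, PGRP-LC, PGRP-LE, PGRP-LF, PGRP-LB, PGRP-SB1, PGRP-SC1a, PGRP-SC1b and PGRP-SC2), out of 17582 genes counted in the deposited files. The rule that lists them uses symbols and no measured value. The libraries were made from whole wild-type *Drosophila melanogaster* of either sex. The flies had inhaled filtered air, or CMIT/MIT aerosol at 330 mg/m3 during 1 hour, and were collected on day 1, day 2 or day 7. CMIT/MIT is a biocide mixture of chloromethylisothiazolinone and methylisothiazolinone. With 3 libraries in each of the 12 groups of sex, day and treatment there were 36 libraries. All groups share the wild-type genotype and the whole-body tissue. The labels give neither the age of the flies, nor the number pooled per library, nor the event from which days were counted. Nothing in the labels says that replicates came from separate cages, so p-values measure only the spread between these samples, which may be technical.

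PGRPs share a domain that binds peptidoglycan, and they divide by what follows binding. Recognition members pass on a signal: PGRP-SA and PGRP-SD are secreted into the haemolymph and act upstream of the Toll pathway, while the transmembrane PGRP-LC and the intracellular and secreted PGRP-LE start the Imd pathway, which induces antimicrobial peptides through the NF-κB factor Relish. PGRP-LF is a transmembrane inhibitor of PGRP-LC. Amidase members (PGRP-LB, PGRP-SB1 and the PGRP-SC proteins) cut peptidoglycan; PGRP-LB and the PGRP-SC proteins are known to damp Imd signalling, chiefly in the gut and fat body.

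Depth ranged from 9525565 to 17182966 counts in the female libraries and from 4681333 to 15444994 in the male ones. Levels are given as CPM, which are counts scaled to the size of the library, here with TMM factors over all 36 libraries. Reads come from the 3′ end of each transcript, so a level was not divided by gene length, and isoforms of a gene were counted together. In these units 3 counts, the limit of detection used here, amounted to between 0.175 and 0.315 CPM of the library total in females and between 0.194 and 0.641 in males. Of the 36 libraries, 2 held markers of both sexes (the male dosage compensation RNA roX1 above 100 CPM together with the yolk protein Yp1 above 1000 CPM): replicate 3 of the exposed males on day 2 and replicate 1 of the exposed females on day 2. They are called mixed libraries below, were kept in the tests, and results that rest on them are given without them too. Whole flies contain every tissue. Fewer cells of a type and less RNA per cell cannot be told apart in such samples.

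All 10 genes were matched to the fly annotation. PGRP-LF and PGRP-SC1a lay close to the limit of detection: PGRP-LF had from 0 to 45 counts per female library outside the mixed ones and PGRP-SC1a from 0 to 30. PGRP-SC1a passed the filter in females and in the fit of all libraries but not in males, where 9 members were tested. PGRP-LC lies on chromosome 3L at 9338810 to 9348336 with 10 annotated transcripts, and PGRP-LF follows it at 9349609 to 9351489. The PGRP-LF exons share 602 of their 1355 bases with UGP on the opposite strand. PGRP-SD (3L, 7651180 to 7651900) shares 35 of 721 exonic bases with CG7492 on the opposite strand and lies inside a gene on its own strand, CG32373, with which it shares no exonic base. The strand setting of the counting is not given in the sources used here, so reads of such overlapping genes cannot be told apart with certainty. PGRP-SC1a and PGRP-SC1b are neighbouring near-identical copies on chromosome 2R, and their separate counts are uncertain.

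**Figure D1:**
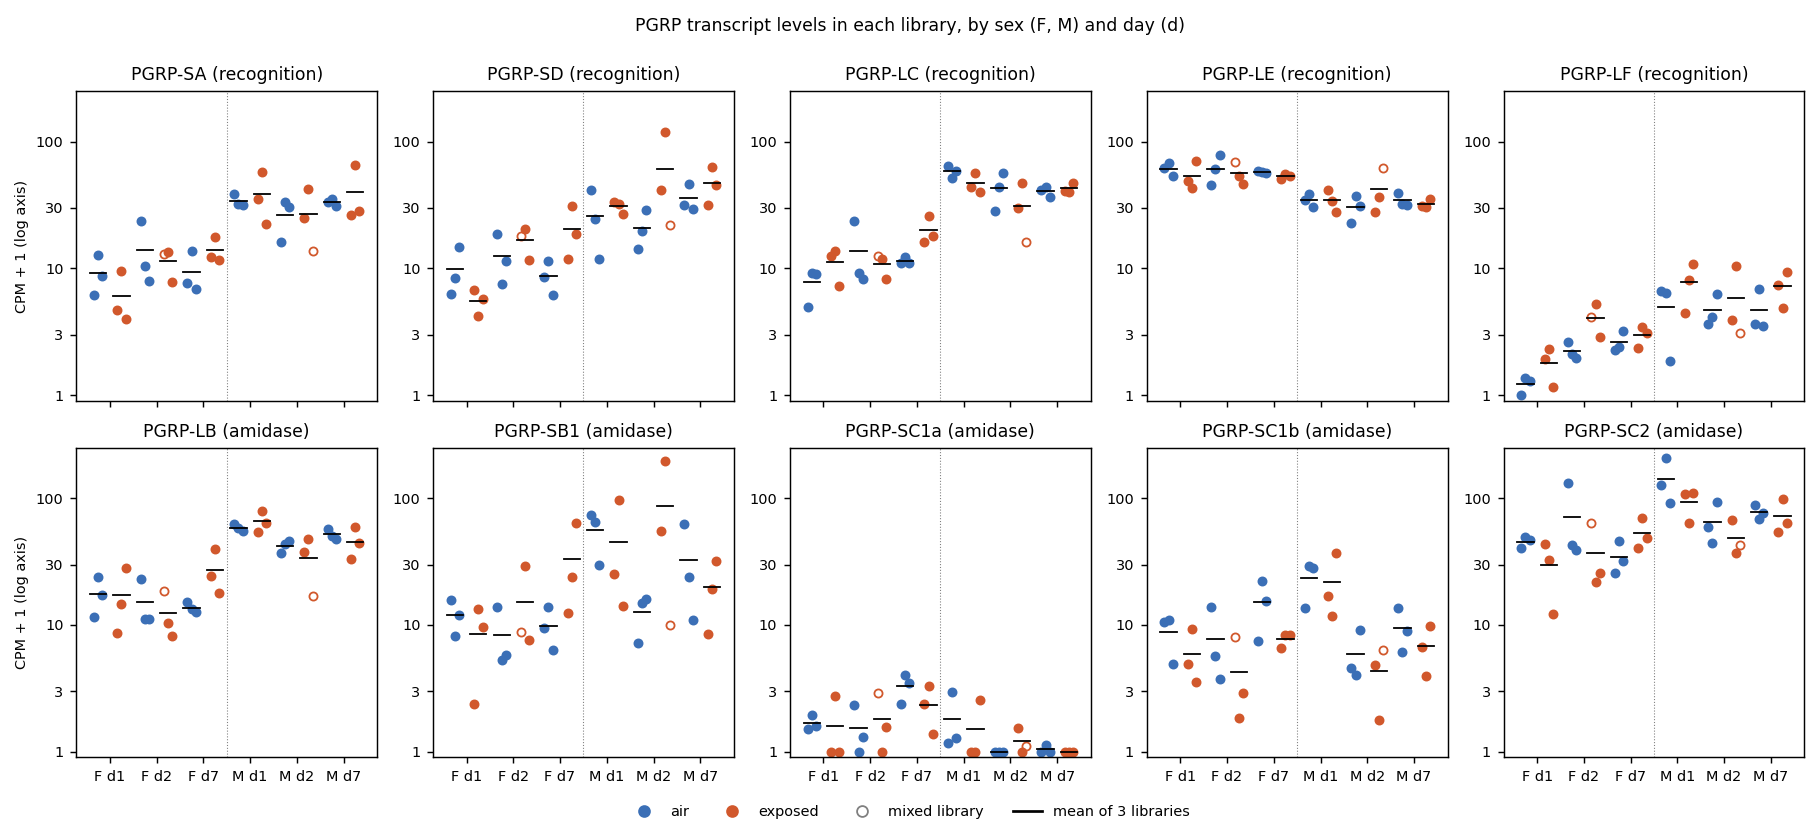
Level of each PGRP gene in the 36 libraries, as CPM + 1 on a log axis, with groups along the horizontal axis by sex and day; each point is 1 library, the bar is the mean of 3 libraries, and open points are the mixed libraries. PGRP-LC points of the unmixed female libraries (3.97 to 24.8 CPM) all lie under the male ones (27.2 to 63.2 CPM), while PGRP-LE shows the reverse order.

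The sexes ranked the family differently. In air females PGRP-LE stood highest at 59.0 ± 9.28 CPM (SD, n = 9 libraries over the 3 days), followed by PGRP-SC2 at 49.5 ± 31.6 CPM, and it exceeded PGRP-SC2 in 8 of 9 libraries. PGRP-LB came next at 14.5 ± 4.96 CPM, below PGRP-SC2 in 9 of 9 libraries. PGRP-LC, PGRP-SA, PGRP-SC1b, PGRP-SD and PGRP-SB1 formed a plateau between 9.09 and 9.96 CPM whose neighbours exceeded each other in only 4 to 6 of 9 libraries, so their order is not resolved. PGRP-SC1a and PGRP-LF closed the order at 1.17 ± 1.01 and 1.03 ± 0.705 CPM. In air males PGRP-SC2 stood highest at 94.1 ± 48.6 CPM, above the next gene in 9 of 9 libraries. PGRP-LB (49.9 ± 8.13 CPM), PGRP-LC (46.3 ± 11.5), PGRP-SB1 (32.8 ± 26.1), PGRP-LE (32.1 ± 5.08), PGRP-SA (30.3 ± 6.29) and PGRP-SD (26.5 ± 11.5) followed. Each exceeded the next in 3 to 7 of 9 libraries, so the order of these neighbours is not resolved. PGRP-SC1b reached 12.03 ± 9.52 CPM in air males, PGRP-LF 3.76 ± 1.80 and PGRP-SC1a 0.280 ± 0.633.

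The genes also differed in how steady they were. The coefficient of variation over the 9 air libraries of a sex was lowest for PGRP-LE in both sexes, at 15.7% in females and 15.8% in males, with PGRP-LB at 16.3% in males and 34.3% in females. PGRP-SB1 varied by 79.6% in air males and PGRP-SC1b by 79.1%. In exposed flies PGRP-SB1 varied by 105% in females and 123% in males. Its exposed libraries ran from 1.37 to 63.2 CPM in females and from 7.56 to 196 CPM in males.

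The sexes were compared within air flies as the mean over days. For 86.7% of all genes tested the edgeR quasi-likelihood test called a sex difference in air flies, and 9 of the 10 members were called, close to that share. Of all genes 35.9% were higher and 50.7% lower in females, and of the members 2 were higher and 7 lower. The median log2 difference of all genes, females minus males, was -0.69 in air flies. It moved by -0.37 when DESeq2 size factors replaced TMM, so members are also given relative to that median. With only genes of at least 5 CPM in 3 libraries kept, the median was -0.24, so distances from it depend on the filter. Relative to the median under the filter used here, 3 members lay above and 7 below. Another scaling shifts members and median nearly alike, so the same split under DESeq2 size factors and library totals is no separate test.

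PGRP-LC, the signalling receptor of the Imd pathway, was lower in females. On day 1 the air females had 3.97, 8.19 and 8.06 CPM and the air males 63.2, 50.9 and 57.5 CPM. On day 2 the values were 22.6, 8.24 and 7.19 CPM in air females against 27.2, 42.8 and 55.6 CPM in air males, and on day 7 they were 9.98, 11.4 and 10.1 against 40.8, 42.9 and 35.5 CPM. All 9 male values exceeded all 9 female values, a separation in this direction that 29.3% of all genes also showed. The log2 difference was -2.24 (SE 0.23, edgeR adjusted p = 1.05e-09), which is -1.56 relative to the median of all genes.

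PGRP-LE, the intracellular sensor of the same pathway (chromosome X, 15801153 to 15803880), was higher in females. Air females had 61.2, 66.8 and 52.7 CPM on day 1, 44.1, 59.4 and 77.4 on day 2, and 57.5, 57.0 and 55.0 on day 7. Air males had 33.3, 37.4 and 29.6 CPM on day 1, 21.7, 36.3 and 30.3 on day 2, and 38.4, 31.3 and 30.5 on day 7. No male value reached the lowest female value, which 21.5% of all genes also showed in this direction. The log2 difference was 0.88 (SE 0.15, edgeR adjusted p = 4.23e-06), or 1.57 above the median of all genes. Across 26 alternative settings it ranged from 0.50 to 0.94, and all kept the call.

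Both receptors kept this separation across treatments. Over the 34 unmixed libraries PGRP-LC ran from 3.97 to 24.8 CPM in 17 female libraries and from 27.2 to 63.2 CPM in 17 male libraries, and PGRP-LE from 41.8 to 77.4 CPM in females and from 21.7 to 40.4 CPM in males. Among all genes, 24.5% were separated with females lower and 17.5% with females higher. The ratio of PGRP-LE to PGRP-LC was between 1.95 and 15.4 in the female libraries, with a median of 5.45. In the male libraries it was between 0.515 and 0.944, with a median of 0.754. Every unmixed female library held more PGRP-LE than PGRP-LC, and every unmixed male library held less. The mixed library labelled exposed male on day 2 had 61.2 CPM of PGRP-LE and 15.1 CPM of PGRP-LC, outside the range of the other male libraries for both genes. The mixed library labelled exposed female had 67.6 and 11.6 CPM, within the female range.

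The other recognition members were also lower in air females. The secreted Toll sensor PGRP-SA (X, 11561643 to 11562779) averaged 9.88 ± 5.40 CPM in females and 30.3 ± 6.29 CPM in males, a log2 difference of -1.64 (SE 0.29, edgeR adjusted p = 7.79e-06). Its groups overlapped, because replicate 1 of the air females on day 2 reached 22.6 CPM and replicate 1 of the air males on day 2 only 15.0 CPM. PGRP-SD, which assists PGRP-SA and PGRP-LC, averaged 9.34 ± 4.21 and 26.5 ± 11.5 CPM (log2 -1.49, SE 0.31, adjusted p = 6.27e-05). PGRP-LF, the inhibitor of PGRP-LC, averaged 1.03 ± 0.705 and 3.76 ± 1.80 CPM (log2 -2.28, SE 0.45, adjusted p = 3.84e-05). Thus 1 of 5 recognition members was higher and 4 were lower in females, and their median log2 difference was -1.64.

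Of the 5 amidases, 3 were lower in air females and 1 was called higher, with a median log2 difference of -0.91. PGRP-LB (3R, 11452849 to 11460552), which removes the peptidoglycan type that triggers Imd, had 10.1 to 23.1 CPM in air females and 35.98 to 61.2 CPM in air males, with no overlap. Of all genes 29.3% were also separated in this direction. Over the 34 unmixed libraries of both treatments PGRP-LB did overlap, with females up to 39.0 CPM and males down to 32.0 CPM. Its log2 difference in air flies was -1.78 (SE 0.24, edgeR adjusted p = 1.50e-07). PGRP-SB1 averaged 9.09 ± 3.97 CPM in females and 32.8 ± 26.1 in males (log2 -1.61, SE 0.52, adjusted p = 0.00575), and the male values overlapped the female ones. PGRP-SC2, a gut amidase, averaged 49.5 ± 31.6 and 94.1 ± 48.6 CPM (log2 -0.91, SE 0.27, edgeR adjusted p = 0.00313). Its difference lay -0.22 from the median of all genes past the filter used here. PGRP-SC1b was not called, at 9.55 ± 5.95 CPM in females and 12.03 ± 9.52 in males (log2 -0.11, SE 0.41, adjusted p = 0.795). The call of PGRP-SC1a (edgeR adjusted p = 0.00812) rests on few reads: female air libraries had 0 to 3.02 CPM, and male air libraries had 0 in all but 4 libraries, of which replicate 2 of day 1 held 1.95 CPM. No fold is given for it, since the fitted fold depends on how zeros are treated.

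In exposed flies, where 85.9% of all genes were called (33.9% higher and 52% lower in females), the same 9 members passed the test in the same directions (median of all genes -0.79). The log2 difference of PGRP-LE was 0.60 (SE 0.15, edgeR adjusted p = 0.000523), that of PGRP-LC -1.63 (SE 0.23, adjusted p = 2.54e-07) and that of PGRP-LB -1.43 (SE 0.24, adjusted p = 5.18e-06). These were 0.68, -1.78 and -1.69 once the mixed libraries were left out, all called. PGRP-SA and PGRP-SD showed differences of -1.93 and -1.96, PGRP-LF by -1.80 and PGRP-SC2 by -0.86. The PGRP-SB1 call (log2 -1.47, adjusted p = 0.0103) was lost without replicate 2 of the exposed males on day 1 (-1.05, adjusted p = 0.0547) and without replicate 2 of the exposed males on day 2 (-0.99, adjusted p = 0.0657). The PGRP-SC1a call (adjusted p = 0.0266) was lost without the mixed libraries (adjusted p = 0.0844). PGRP-SC1b, uncalled at -0.65 (adjusted p = 0.141), was called at -0.89 (adjusted p = 0.0415) without the mixed libraries.

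**Figure D2:**
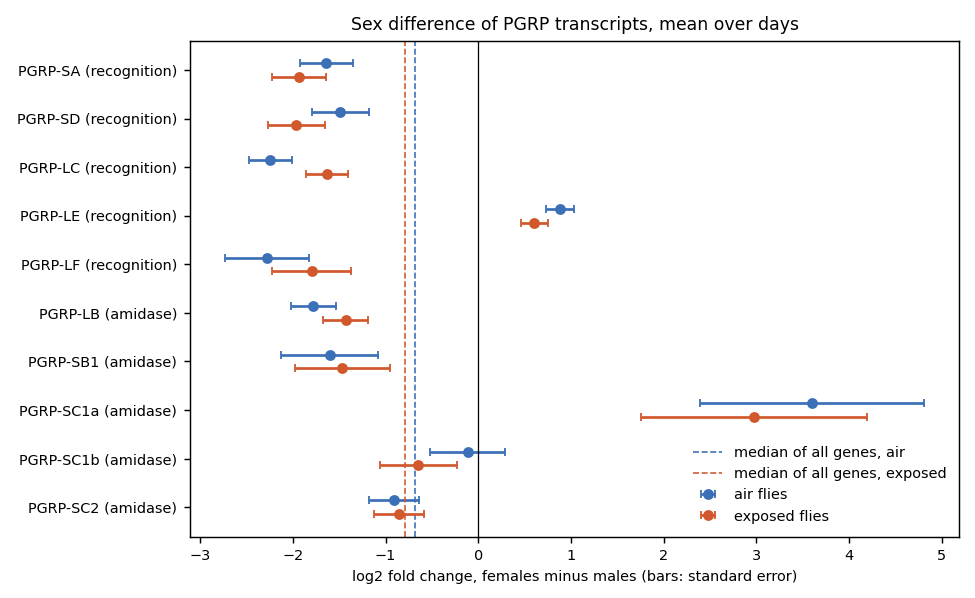
Log2 fold change of each PGRP gene, females minus males, as the mean over days, in air flies and in exposed flies; points are edgeR estimates, bars are 1 standard error and dashed lines are the medians of all genes. PGRP-LE lies at 0.88 and 0.60, on the opposite side of 0 from PGRP-LC at -2.24 and -1.63.

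The pathways around the PGRPs did not share one direction. Their counts stand beside 35.9% of all genes higher and 50.7% lower in females, and their medians beside -0.69. Among 13 intracellular Imd components tested in air flies, 9 were higher and 1 was lower in females (median log2 0.64); the adaptor Fadd (1.90, edgeR adjusted p = 2.76e-08) and the nuclear cofactor akirin (1.58, adjusted p = 5.99e-07) led by p. Of 9 Toll components from the transmembrane receptor Tl inward, 7 were higher and 2 lower (median 1.07), with Tl at 2.59 and the NF-κB factor Dif at -1.87. Of 13 extracellular Toll components 1 was higher and 11 were lower (median -1.60), among them the serpin nec at -1.91 and the fungal sensor GNBP3 at -1.58. Antimicrobial peptide genes induced through Imd were lower in 9 of 11 and higher in 0 (median -2.91), with CecA1 at -7.42. Those attributed to Toll were lower in 14 of 17 and higher in 0 (median -1.36). Negative regulators of Imd split into 3 higher and 3 lower of 7, with POSH at 2.55 and pirk at -2.38. PGRP-LA, a further recognition gene next to PGRP-LC, differed by -1.66 (adjusted p = 4.12e-07), while PGRP-LD and PGRP-SB2 did not pass the filter and stayed below 1 CPM in all libraries.

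Tissue marker lists had these sex differences in the same flies, beside 50.7% of all genes lower and a median of -0.69. Of 37 digestive enzyme genes of the midgut 20 were lower and 4 higher in air females (median log2 -0.85), and their summed level ran from 2948 to 29272 CPM in air females and from 6034 to 26747 CPM in air males. Fat body markers were lower in 7 of 11 and higher in 2 (median -1.18, sum 1934 to 5288 against 3875 to 8433 CPM), haemocyte markers lower in 5 of 11 and higher in 1 (median -1.58, sum 262 to 377 against 248 to 518 CPM), and Malpighian tubule markers lower in 8 of 8 (median -1.80). The part of tissue proportions in the PGRP sex differences was not tested.

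As a share of all PGRP reads the 5 amidases together took between 35.3% and 62.5% in the unmixed female libraries (median 48.0%) and between 42.8% and 70.8% in the male ones (median 56.5%). These ranges overlap broadly. The 95% binomial interval (exact Clopper-Pearson) of a library's share reached at most 2.76 percentage points to either side in females and 2.44 in males, and covers counting error only. PGRP-LE alone took 15.2% to 52.1% of PGRP reads in females (median 36.3%) and 6.68% to 15.4% in males (median 9.83%), the ranges touching through replicate 1 of the air females on day 2 alone. The summed PGRP level was 113 to 289 CPM in females (median 159) and 183 to 530 CPM in males (median 331). In air flies the amidase share by day was 49.0% ± 0.633, 46.5% ± 14.2 and 45.3% ± 5.34 in females and 64.0% ± 5.90, 50.6% ± 6.60 and 53.3% ± 6.19 in males on days 1, 2 and 7 (SD, n = 3). In exposed flies it was 43.9% ± 6.41, 40.1% ± 5.69 and 52.6% ± 4.75 in females and 59.5% ± 4.20, 49.6% ± 9.18 and 45.8% ± 2.62 in males.

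**Figure D3:**
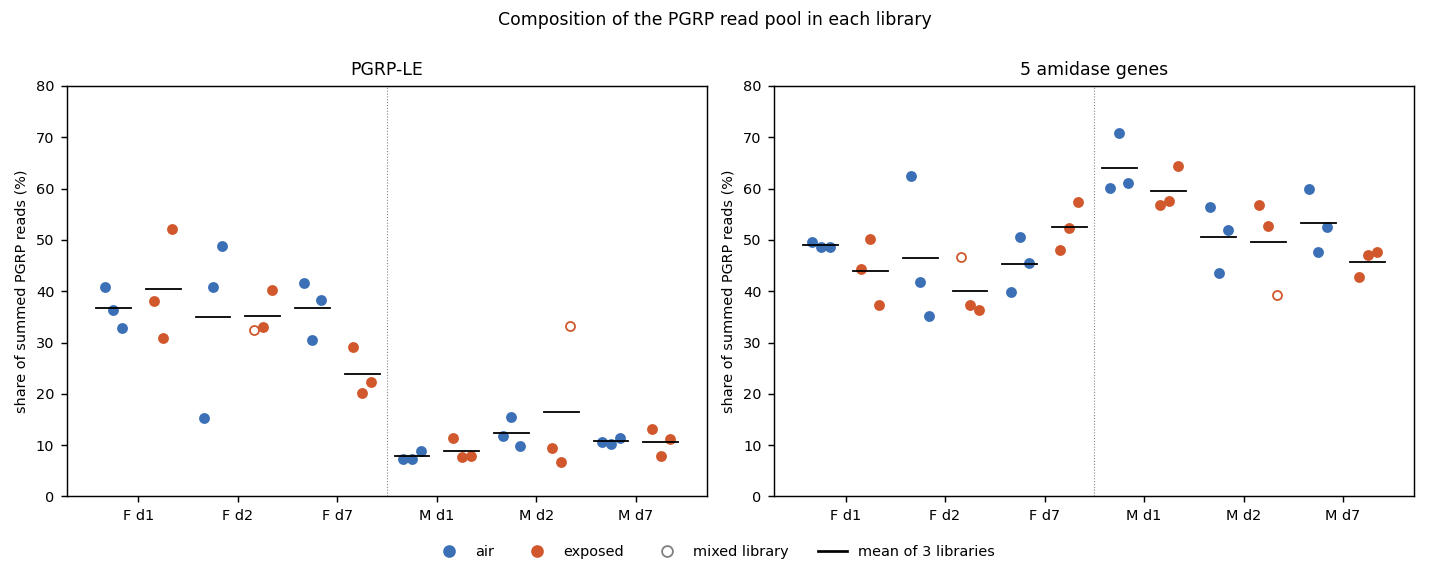
Share of summed PGRP reads, in percent, held by PGRP-LE (left) and by the 5 amidase genes together (right) in each of the 36 libraries; points are libraries, bars are means of 3, open points are the mixed libraries. The PGRP-LE share has medians of 36.3% in females and 9.83% in males, while the amidase share of the sexes overlaps.

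The study asked which transcripts change after inhalation, so exposed flies were compared with air flies within each sex and day. No PGRP gene passed the edgeR test in any of the 6 comparisons. The background was small too: among all genes 0.263% were called in females on day 1, 0.455% on day 2 and 0.0101% on day 7, and 0% in males on each day. At an unadjusted p under 0.05 there were 0, 1 and 4 members in females on days 1, 2 and 7, where 12.7%, 9.52% and 3.28% of all genes were at that level. In males there were 0, 2 and 0 members, against 3.17%, 21.8% and 0.932% of all genes. Groups did not overlap for 0, 1 and 4 of the 10 members in females on days 1, 2 and 7, and for 16.6%, 10.9% and 18.3% of all genes. In males they overlapped for all members on every day, and did not for 13.2%, 11.6% and 8.45% of all genes. DESeq2 called 2 members, PGRP-SB1 and PGRP-SD in males on day 2, where it called 6.72% of all genes, and 0 in the other 5 comparisons.

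PGRP-SB1 (3L, 16727299 to 16727989) showed the widest exposure difference. On day 2 the air males had 6.18, 13.9 and 15.1 CPM and the exposed males 54.7, 196 and 8.94 CPM, the last being the mixed library. The first and second exposed libraries lay above all air libraries of that day and the mixed library lay among them. The log2 difference was 2.90 (SE 0.90), with an edgeR adjusted p of 0.0925 that ranged from 0.026 to 0.654 over 15 alternative settings with adjustment. On the other days the air males had 73.3, 64.4 and 28.9 CPM on day 1 and 61.1, 22.9 and 9.90 on day 7, up to levels above the first of those exposed libraries and below the second. The exposed males had 24.2, 95.3 and 13.2 CPM on day 1 and 7.56, 18.4 and 31.0 on day 7, overlapping the air males on both days.

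PGRP-SD behaved alike on day 2 in males. Air males had 13.3, 18.7 and 27.7 CPM and exposed males 40.4, 119 and 21.0 CPM, with the mixed library again inside the air range. The log2 difference was 1.61 (SE 0.52, edgeR adjusted p = 0.098). At an unadjusted p under 0.05, 16.5% of all genes were higher in this comparison, beside these 2 of 9 members. Both genes passed at 0.05 with DESeq2 (PGRP-SB1 adjusted p = 0.0431, PGRP-SD 0.0321) and in an edgeR fit of all 36 libraries (0.0447 and 0.0489, with 10.7% of all genes called). They also passed without replicate 1 of the exposed males (edgeR adjusted p of 0.026 and 0.0253). That fit called 2490 genes in all, against 0 in the main fit. Without replicate 2, the highest library, the differences fell to 1.47 and 0.66, with adjusted p of 0.271 and 0.381. With the mixed libraries left out they were 3.45 (SE 0.79) and 2.02 (SE 0.46), both with an adjusted p of 0.199.

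Antimicrobial peptide genes of the Imd pathway were, as a sum, higher in replicates 1 and 2 of the exposed males on day 2 than in air males. In the mixed library the sum was lower. All 11 of these genes had a positive log2 difference in males on day 2, as 53.4% of all genes did (median 4.15, all-gene median 0.07). None was called, and 9 were at an unadjusted p under 0.05. AttC had 577 CPM in exposed and 10.01 CPM in air males on average (log2 5.86, edgeR adjusted p = 0.0782), and AttA 325 and 8.47 CPM (5.28, adjusted p = 0.0816). The summed level of the Imd peptides was 356 to 504 CPM in air males on that day. In exposed males it was 2769, 12301 and 133 CPM, the last being the mixed library. On day 1 it was 1420 to 7608 CPM in air males. Among Toll peptides all 17 were positive (median 1.22) and 6 were at that unadjusted level. The other 7 tested members lay between -0.49 and 0.53: PGRP-LE 0.53 (SE 0.30), which became 0.10 (SE 0.25) without the mixed library, PGRP-LC -0.46 (SE 0.32) and PGRP-LB -0.29 (SE 0.31).

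In females on day 7, 7 of 10 members had a positive difference and 3 a negative one, against 49.3% of all genes positive, and 4 members were at an unadjusted p under 0.05, all higher, against 2.36% of all genes in that direction. None passed after adjustment (edgeR adjusted p = 1). PGRP-SD had 7.61, 10.4 and 5.14 CPM in air and 10.7, 29.8 and 17.7 CPM in exposed females (log2 1.37, SE 0.46). PGRP-LB had 14.1, 12.3 and 11.8 CPM against 23.2, 39.0 and 17.03 CPM (1.09, SE 0.46). PGRP-LC had 9.98, 11.4 and 10.1 CPM against 15.1, 24.8 and 17.1 CPM (0.90, SE 0.41). For these 3 genes every exposed library lay above every air library, as for 7.22% of all genes.

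PGRP-SB1 completed the group, with 8.40, 13.0 and 5.33 CPM in air and 11.5, 22.7 and 63.2 CPM in exposed females (1.91, SE 0.77); these groups overlapped. On the negative side PGRP-SC1b averaged 14.1 CPM without and 6.74 CPM with exposure (-1.02, SE 0.67) and PGRP-SC1a, at few reads, 2.29 and 1.36 CPM (-0.73, SE 1.37). PGRP-LE was the only member whose exposed females all lay below the air females, at 49.4, 54.3 and 52.8 against 57.5, 57.0 and 55.0 CPM, a log2 difference of -0.08 (SE 0.20); 11% of all genes were separated in that direction. The Imd peptides were positive in 10 of 10 genes tested (median 2.58), with 5 at an unadjusted p under 0.05 and none called; AttA averaged 54.2 against 4.64 CPM. Midgut digestive genes were positive in 30 of 35 (median 0.57), their summed level running from 2948 to 6200 CPM in air and from 6805 to 7465 CPM in exposed females. Haemocyte markers were positive in 9 of 10 (median 0.68), with sums of 262 to 287 and 263 to 308 CPM. Their part in the PGRP differences was not tested.

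On day 1 the female differences leaned downward, with none at an unadjusted p under 0.05. Of 10 members 2 were positive, against 49.4% of all genes, with a median of -0.36 against -0.0048 for all genes. All 5 amidases were below 0, from -0.65 (PGRP-SC1b) to -0.0035 (PGRP-LB). The sign of PGRP-LB changed in 8 of 16 alternative settings and that of PGRP-SC1a in 3 of 14. On day 2, 4 of 10 members were positive (median -0.28), and PGRP-SC2 had 131, 41.5 and 38.1 CPM in air and 62.9, 21.0 and 24.9 CPM in exposed females, overlapping through the mixed library at 62.9 CPM (log2 -1.09, SE 0.50, edgeR adjusted p = 0.51; 5.84% of all genes were lower at an unadjusted p under 0.05). With that library left out it was -1.59 (SE 0.54, adjusted p = 0.298). PGRP-SC1b had 13.0, 4.71 and 2.72 CPM against 7.03, 0.836 and 1.89 CPM (-1.23, SE 0.70). Without the mixed library it was -2.27 (SE 0.77, edgeR adjusted p = 0.291). Over 16 alternative settings PGRP-SC2 ranged from -1.59 to -0.20 and PGRP-SC1b from -2.27 to -0.30. Replicate 1 of the air females held the highest female value of that day for both genes. PGRP-LF was higher in every exposed library, at 3.13, 4.18 and 1.89 CPM against 1.61, 1.10 and 0.967 CPM (1.27, SE 0.79, adjusted p = 0.661), as 6.05% of all genes were. Midgut digestive genes had median differences of -1.60 on day 1 and -1.36 on day 2, with sums of 6421 to 11096 CPM in air against 2173 to 3247 CPM in exposed females on day 1, and 8183 to 29272 against 2001 to 12738 CPM on day 2. Gut PGRP-SC2 on day 1 had 39.2, 48.3 and 46.2 CPM in air and 42.6, 31.6 and 11.2 CPM in exposed females (-0.63, SE 0.49). The part of the midgut markers in these values was not tested.

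In males on day 1 the tested members lay between -0.62 (PGRP-SC2, SE 0.35) and 0.77 (PGRP-LF, SE 0.69), and on day 7 between -0.72 (PGRP-SB1, SE 0.85) and 0.78 (PGRP-LF, SE 0.70). All groups overlapped on both days. PGRP-LE was the most closely bounded gene, with exposure differences between -0.17 and 0.53 over the 6 comparisons and standard errors from 0.20 to 0.30. A missed threshold does not show that exposed and air flies were alike.

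**Figure D4:**
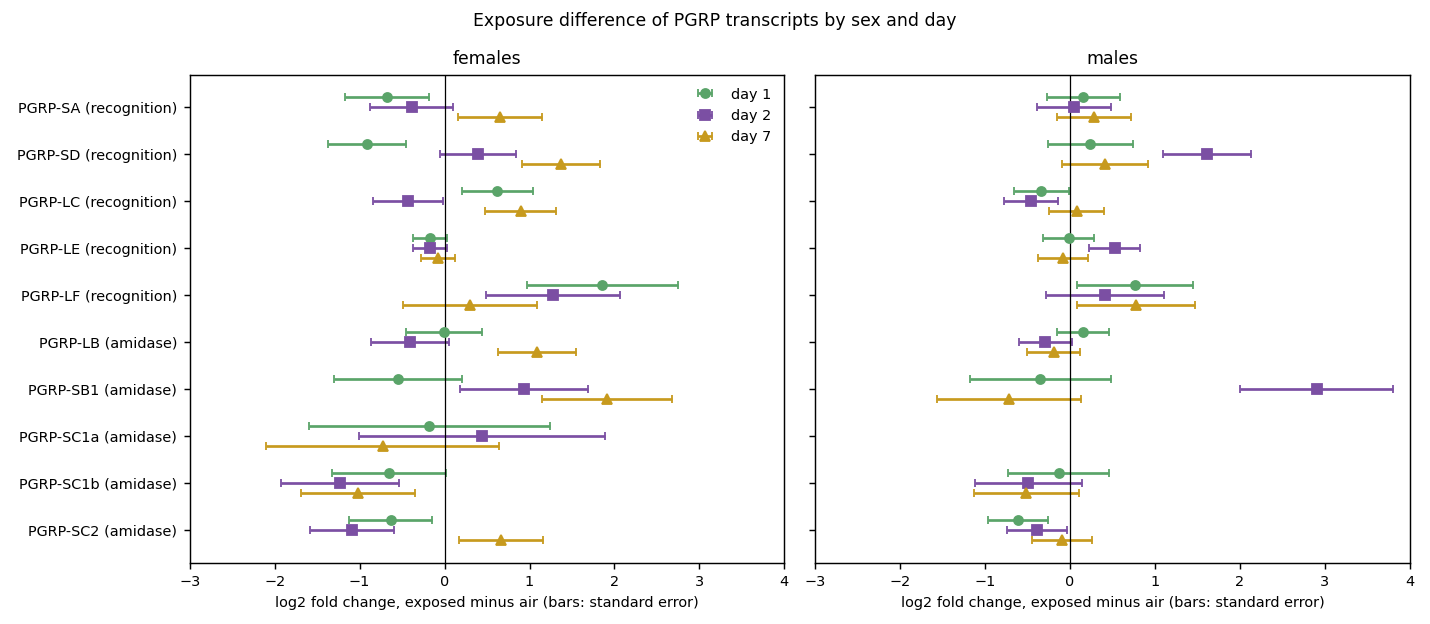
Log2 fold change of each PGRP gene, exposed minus air, in females (left) and males (right) on days 1, 2 and 7; points are edgeR estimates and bars are 1 standard error (PGRP-SC1a was not tested in males). PGRP-SB1 and PGRP-SD in males on day 2, at 2.90 and 1.61, stand farthest to the right in males, and no estimate passed at an adjusted p of 0.05.

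Recognition members and amidases were set side by side under exposure. The median differences of the 5 recognition genes were -0.17, -0.17 and 0.65 in females on days 1, 2 and 7, and those of the 5 amidases -0.54, -0.41 and 0.66. In males the medians were 0.16, 0.41 and 0.28 for recognition genes and -0.24, -0.34 and -0.35 for the 4 amidases tested. Each class held both signs in several comparisons, and on day 2 in males the amidase PGRP-SB1 (2.90) stood far from PGRP-SC1b (-0.49), PGRP-SC2 (-0.39) and PGRP-LB (-0.29).

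Change over days was compared within each sex and treatment. In air females no member was called among days, with 0.131% of all genes called, and in air males none was, with 0.155% called. The nearest in air females was PGRP-LF, at few reads, with 0, 0.359 and 0.298 CPM on day 1, 1.61, 1.10 and 0.967 CPM on day 2, and 1.28, 1.41 and 2.20 CPM on day 7. The log2 difference was 2.35 (SE 0.89) from day 1 to day 2 and 2.80 (SE 0.90) from day 1 to day 7 (edgeR adjusted p among days 0.27). In exposed females PGRP-SD was called, where 3.68% of all genes were. It had 5.77, 3.19 and 4.70 CPM on day 1, 16.9, 19.6 and 10.6 CPM on day 2, and 10.7, 29.8 and 17.7 CPM on day 7. The log2 difference was 1.61 (SE 0.47) from day 1 to day 2 and 2.03 (SE 0.47) from day 1 to day 7 (edgeR adjusted p among days 0.0464). The call does not hold without the mixed libraries, nor without any 1 of the 3 day 1 libraries, replicate 1 or 2 of day 2, or replicate 2 or 3 of day 7.

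In exposed males no member was called, with 0.855% of all genes called, and PGRP-SC1b came nearest. It had 15.9, 10.8 and 35.8 CPM on day 1, 3.87, 0.789 and 5.39 CPM on day 2, and 5.74, 2.98 and 8.90 CPM on day 7 (edgeR adjusted p = 0.07). Its mean was highest on day 1. The call was made by DESeq2 (5.16% of all genes called) and with no filter on low counts (2.1%). It was also made without replicate 1 or replicate 2 of the exposed males on day 2. Those fits called 1975 and 784 genes in all, against 110 in the main fit. Air males had a like order, with 12.7, 28.2 and 27.2 CPM on day 1, 3.57, 2.99 and 8.05 on day 2, and 12.5, 5.08 and 8.02 on day 7 (adjusted p = 0.261), and DESeq2 called it there, with 1.67% of all genes. PGRP-SC2 also stood highest on day 1 in air males, at 126, 208 and 91.4 CPM, against 57.9, 43.1 and 91.8 CPM on day 2 (log2 -1.17, SE 0.35, for day 2 minus day 1; adjusted p among days 0.312).

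No member's exposure effect was called different among days, in females (0.445% of all genes called) or in males (0%), nor between the sexes on day 1 (0.0151%), day 2 (12.2%) or day 7 (0%). In these tests PGRP-SD in females (edgeR adjusted p = 0.275) and PGRP-SB1 in males (adjusted p = 0.647) were at an unadjusted p under 0.05 among days, beside 10.7% and 7.65% of all genes, and so were PGRP-SB1 and PGRP-LB between the sexes on day 7, beside 1.33% of all genes (effects in females larger by 2.59, SE 1.26, and 1.25, SE 0.59, both adjusted p = 1). PGRP-SB1 on day 2 was 1.94 smaller in females, with an SE of 1.26. Without the mixed libraries, the day 2 test between the sexes called 0 genes with a higher and 11 with a lower effect in females, in place of 12.2%.

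The genes most like each member were found by Pearson correlation of log2(CPM + 1), centred within each sex, over the 34 unmixed libraries and 13240 other genes, for the 8 members that averaged at least 5 CPM over the 18 libraries of either sex. PGRP-LF and PGRP-SC1a fell below that level and were left out. The values are descriptions over libraries that share groups and depth. PGRP-SB1 was most like DptB, which encodes a diptericin, an antimicrobial peptide induced through Imd (r = 0.869; 0.794 within the 17 female and 0.936 within the 17 male libraries; Spearman's rho 0.859; r = 0.816 without the 2 libraries farthest from the median of DptB). In males on day 2 DptB had 5.48, 12.2 and 27.8 CPM in air and 248, 1415 and 6.65 CPM in exposed libraries, in the same order as PGRP-SB1 by library. CG45045 (0.834) and Mtkl (0.811) came next. PGRP-LB was most like pirk, an inhibitor of the PGRP-LC signal (r = 0.703; 0.752 in females and 0.703 in males; rho 0.738; 0.684 without the 2 farthest libraries), then Gp150 (0.674) and Cyp309a1 (0.661).

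PGRP-LC was most like ltl (0.764), CG7695 (0.752) and Gp150 (0.747), so Gp150 was among the leading 3 for both PGRP-LC and PGRP-LB. PGRP-SD was most like CG6287 (0.806), CG34454 (0.799) and pug (0.799), and PGRP-SA like CG7607 (0.794), the mitochondrial ATP6 (0.784) and GXIVsPLA2 (0.783). PGRP-SC2 was most like Scp2 (0.783), CG4653 (0.762) and Nha1 (0.740), and PGRP-SC1b like Oatp33Ea (0.698), CG7912 (0.695) and CG15155 (0.690). PGRP-LE had the weakest leading correlations, with CG5641 (0.643), l(2)gl (0.615) and mbt (0.608). Among the members themselves PGRP-SC1b and PGRP-SC2, neighbours on 2R, had r = 0.643, PGRP-SA and PGRP-LC 0.640, PGRP-SA and PGRP-SD 0.614, and PGRP-SD and PGRP-SB1 0.540. PGRP-LC and PGRP-LE were at -0.181, with -0.537 in females and 0.529 in males. PGRP-SD and PGRP-SC1b were at -0.347.

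**Figure D5:**
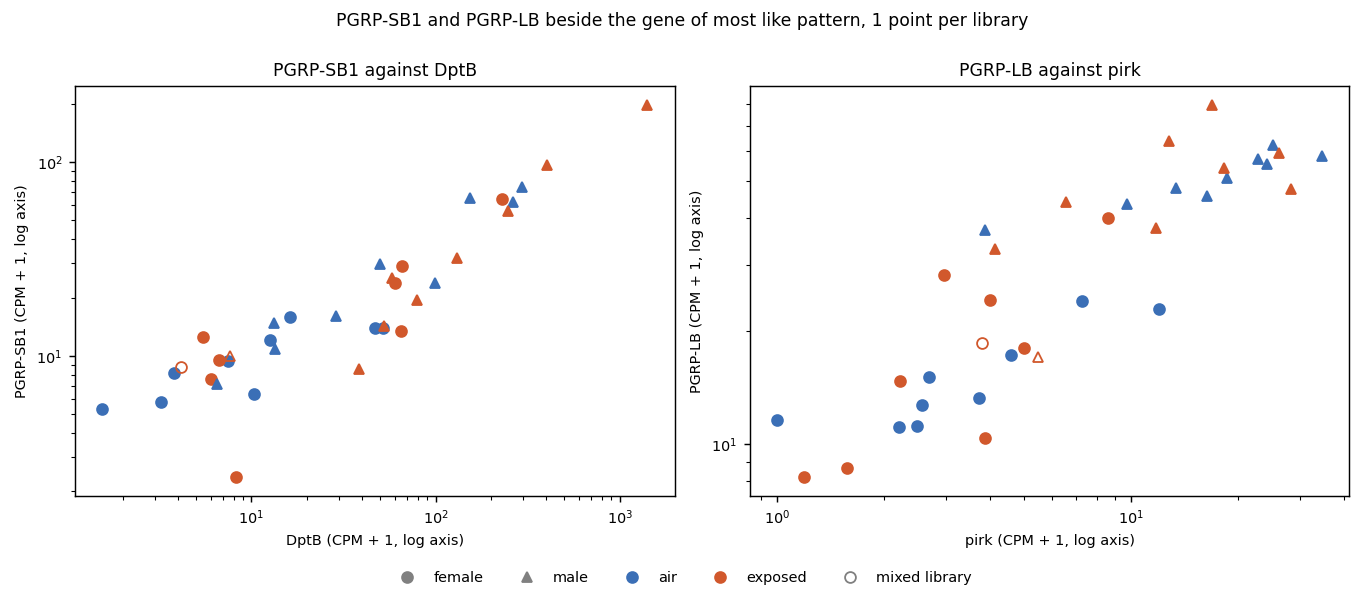
PGRP-SB1 against DptB (left) and PGRP-LB against pirk (right), both axes CPM + 1 on log scales; each point is 1 library, circles are females, triangles males, and open symbols the mixed libraries. The highest PGRP-SB1 library (196 CPM) is also the highest in DptB (1415 CPM), and the sex-centred correlations over 34 libraries are 0.869 and 0.703.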

How the data were processed

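Per the labels' protocols, total RNA of whole flies went into QuantSeq libraries of transcript 3′ ends. Each deposited file holds whole-number counts of reads by gene symbol, without normalization, made with fastp, STAR and HTSeq on dm6 per the submitters' processing notes. Their versions, annotation and strand setting were not given in the sources used here. The 36 files held 17583 entries each, of which 1 had no symbol (at most 0.000107% of a library) and was left out. Gene positions come from the BDGP6.54 annotation, matched by symbol.

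From the counts, edgeR 4.0.16 (R 4.3.3) was fitted per sex (18 libraries, 6 groups), and over all 36 libraries for sex contrasts, with filterByExpr (minimum count 10, minimum total 15), TMM scaling, a prior count of 0.125 and quasi-likelihood F tests. P-values were adjusted by Benjamini-Hochberg over all genes tested (9893 in females, 12871 in males, 13241 in all), with a threshold of 0.05. An SE is the fold change divided by the square root of F. Replicate libraries differed beyond sampling noise. Intervals and floors of 3 counts cover counting error only. Scripts were tested on simulated data. There the exposure tests recovered 26.9% to 32.6% of 2-fold changes in females and 1.77% to 3.81% in males. Of 4-fold changes they recovered 64.8% to 74% in females and 42.4% to 54% in males.

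Every member is named, together with the leading genes by p of each pathway list and the 3 genes most like each of the 8 members that averaged at least 5 CPM over the 18 libraries of either sex. Members and lists were chosen with earlier results of these data known. Alternatives were DESeq2 1.42.0, other scalings and filters, a replicate block, omission of the mixed libraries or of each library, and the series' own threshold (fold above 1.5, unadjusted p below 0.05).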

Additional observations from a re-analysis of the deposited data

How the results depend on the processing

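Of 328 recounts of called members under alternative settings 301 stayed within 1.5 times the reported count and 27 moved, and of 2018 member values 9 lost and 19 gained a call while 94, none of them with a call, changed sign. Under the series' own threshold the counts became 1 in females on day 2 (7.09% of all genes), 4 in females on day 7 (2.7%) and 2 in males on day 2 (21.4%). Among days they became 1 in air females (10% of all genes), 4 in exposed females (15.7%), 2 in air males (7.92%) and 3 in exposed males (19.1%). The exposure effect differed among days for 1 member in females (10.2% of all genes) and 1 in males (7.63%), and between the sexes on day 7 for 2 (1.32%). DESeq2 gave 2 in males on day 2, 1 among days in air males and 1 in exposed males. The fit of all 36 libraries gave 2 in males on day 2, and no filter on low counts gave 1 among days in exposed males. Without the mixed libraries the count among days in exposed females was 0. The cause of these moves was not tested.

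Leaving out each library in turn, the count of called members ranged from 0 to 2 in males on day 2, from 0 to 1 among days in exposed females and in exposed males, from 9 to 9 between the sexes in air flies, from 8 to 9 in exposed flies, and from 0 to 0 in the other 12 comparisons. The count of all genes called ranged from 0 to 2490 in males on day 2. Among days it ranged from 95 to 374 in exposed females and from 4 to 1975 in exposed males. Between the sexes it ranged from 11435 to 11719 in air flies and from 11250 to 11795 in exposed flies. Deviations of air and exposed libraries with like replicate numbers were correlated. Of 18 correlations 4 were over 0.1 (range -0.0729 to 0.272), and a library was most like its own number in 7 of 18. All 4 were on day 2, at 0.235 and 0.272 for replicates 1 and 3 in females and 0.193 and 0.124 in males. Each of these was most like its own number. Replicate 2 of that day had -0.0729 in females and -0.0113 in males. Pairing on day 2 alone was not tested. With the replicate block, 0 members differed among days in exposed females in place of 1, and the block took 1 call in exposed flies between the sexes (8 in place of 9). Low counts limit PGRP-SC1a and PGRP-LF.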
